A study of Saccharomyces cerevisiae with 8 samples.

Results

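The expression of genes in the yeast strain CRN/PPN2 grown with 20 mM KOH was compared with that of its parent strain CRN grown in YPD. The comparison was chosen by its sample labels and rests on 4 of the 8 libraries of the series, 2 of each group. CRN is Saccharomyces cerevisiae of genotype MATa ade2 his3 ura3 ppn1Δ::CgTRP1, so PPN1, a polyphosphatase gene, is deleted in every group. In CRN/PPN2 the centromeric plasmid pMB1/PPN2 was added, on which the constitutive TDH3 promoter drives PPN2 and URA3 is the marker. The empty plasmid was not among the groups. Both strains were grown for 16 h in YPD (glucose, peptone and yeast extract). With KOH, CRN was grown for 40 h and CRN/PPN2 for 25 h. Only the culture of CRN/PPN2 with KOH went straight into Trizol LS, while the French press was used on frozen cells of the remaining groups. Its cells were also washed in water with sorbitol. The comparison thus changed strain, medium, time, washing and lysis at once, and in the KOH step of CRN/PPN2 all but the strain cannot be told apart. The libraries of a group are called replicates, with no word on separate cultures, so a p-value here reflects only how far these samples spread, which may be technical.

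Inorganic polyphosphate is a chain of phosphate residues that yeast stores mainly in the vacuole, where the VTC complex makes it. Polyphosphatases such as Ppn1 and Ppn2 cut it into shorter chains or phosphate. The PHO pathway induces phosphate transporters and acid phosphatases through the factor Pho4 when phosphate is scarce. An alkaline medium weakens the proton gradient of the plasma membrane, on which nutrient uptake depends, and is sensed in part by the Rim101 pathway and by calcineurin. Stress factors Msn2 and Msn4 bind the element AGGGG in the promoters of genes that protect the cell.

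The whole change, CRN/PPN2 with KOH against CRN in YPD, was split for each gene into 2 steps that add up to it on the log2 scale. The strain step is CRN/PPN2 against CRN in YPD, and the KOH step is KOH against YPD in CRN/PPN2. In the other order the KOH step is taken in CRN and the strain step with KOH. Consecutive steps share the libraries between them with opposite sign, and each step shares libraries with the whole change. They are therefore given side by side, and their likeness is not tested. Levels are CPM (read counts relative to the library total, scaled by TMM factors), and changes are log2 fold changes with their standard error (SE) from a fit to all 8 libraries. A gene was called at an adjusted p under 0.05 (edgeR's quasi-likelihood test with Benjamini-Hochberg adjustment over 5430 genes).

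The 2 CRN/PPN2 libraries with KOH were the smallest, with 1559324 and 796548 counts, and the other 6 held 3844316 to 5004823. A single count equals 0.633 and 1.19 CPM in the former and 0.196 to 0.266 CPM in the others. The SD between replicates was 0.308 on the log2 scale in CRN/PPN2 with KOH and 0.165 to 0.214 in the other groups. PPN1 had 0 or 1 count in every library. PPN2 (YNL217W, chromosome XIV, 240331 to 241311 in R64) was at 215 and 206 CPM in CRN in YPD. With the plasmid it stood at 6854 and 6468 CPM in YPD and at 5997 and 6135 with KOH. Its whole change of 4.85 (SE 0.16, adjusted p = 7.9e-14) was a strain step of 4.98 with a KOH step of -0.13 that was not called (adjusted p = 0.41). URA3, the plasmid marker, rose by 2.22 in the whole change, with a strain step of 2.84 and a KOH step of -0.61. Reads of the plasmid and chromosomal copies cannot be told apart.

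In the whole change, 1691 genes were higher (31.1% of the genes tested) and 1487 lower (27.4%). With an absolute log2 fold change of at least 1, 819 were higher (15.1%) and 334 lower (6.15%). The strain step alone called 224 higher (4.13%) and 129 lower (2.38%), and the KOH step in CRN/PPN2 called 1586 higher (29.2%) and 1386 lower (25.5%). In the other order, the KOH step in CRN called 409 higher (7.53%) and 413 lower (7.61%), and the strain step with KOH called 1672 higher (30.8%) and 1405 lower (25.9%). The counts of each list below are to be read against these shares of all genes tested. Genes called higher in the whole change had a median of 0.97, which was made of a median strain step of 0.13 and a median KOH step of 0.85. In the other order these medians were 0.15 for KOH in CRN and 0.89 for the strain with KOH. For genes called lower the median was -0.72, with a strain step of -0.11 and a KOH step of -0.63, and in the other order -0.07 and -0.66. Only 178 of the 1691 genes higher and 145 of the 1487 lower had a strain step with the sign of the whole change and at least 50% of its size. The strain step pointed against the whole change in 499 and 441 of them, whether or not it was called itself. Both steps were called in opposite directions for 71 genes, and for 41 of these the whole change was not called.

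The number of calls of the strain step in YPD, 353 with all libraries, depended on single libraries. Leaving out 1 library of CRN YPD gave 130 (replicate 1) or 110 (replicate 2). For CRN +KOH the numbers were 228 and 214, for CRN/PPN2 YPD 98 and 135, and for CRN/PPN2 +KOH 801 and 790. The whole change, with 3178 calls, had 2522 to 3077 when any 1 library was left out. The KOH step in CRN, with 822 calls, gave 360 and 267 for CRN YPD, 348 and 202 for CRN +KOH, 633 and 625 for CRN/PPN2 YPD, and 1412 and 1392 for CRN/PPN2 +KOH.

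**Figure D1:**
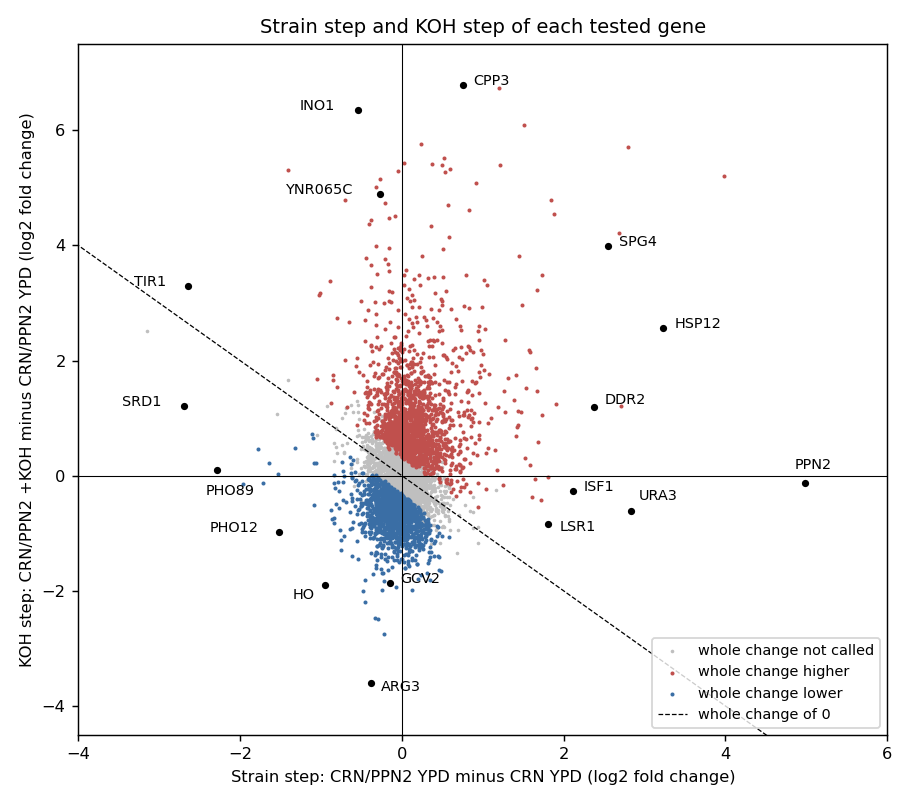
Strain step (x axis) and KOH step in CRN/PPN2 (y axis) as log2 fold changes, with 1 point for each of the 5430 tested genes, coloured by the call of the whole change, and a dashed line where both steps cancel. Most coloured points lie near the vertical axis, PPN2 lies on the right with a strain step of 4.98 and a KOH step of -0.13, and CPP3 lies at the top with 0.75 and 6.79.

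The 12 largest rises were of genes at under 5 CPM in both libraries of CRN in YPD, and 9 of the 12 passed the filter only through the libraries of CRN/PPN2 with KOH and so had to differ. CPP3 (YDR034W-B, chromosome IV, 521314 to 521469), which encodes a small cysteine-rich membrane protein of the CYSTM family, was at 2.27 and 1.99 CPM in CRN in YPD, 4.09 and 3.14 in YPD-grown CRN/PPN2, 28.2 and 23.0 in CRN with KOH, and 386 and 423 in CRN/PPN2 with KOH. The groups with KOH lay above those without, and CRN/PPN2 with KOH lay above all. The whole change was 7.54 (SE 0.21, adjusted p = 2.3e-14), which was a strain step of 0.75 that was not called (adjusted p = 0.32) and a KOH step of 6.79. From a higher level, YNR065C, a gene related to the vacuolar sorting receptor gene PEP1, went from 106.6 and 104.9 CPM in CRN in YPD to 2285 and 2919 in CRN/PPN2 with KOH. It stood at 88.7 and 86.1 CPM in YPD-grown CRN/PPN2 and at 183 and 198 in CRN with KOH, so the change was nearly all in the last step. YCR099C, which also resembles PEP1, moved from 21.4 and 18.3 to 559.9 and 615 CPM with a whole change of 4.88 (SE 0.15, adjusted p = 6.3e-14). Reads shared among these related genes may not be assigned to the right one.

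Other large rises were of SHH3, a relative of a succinate dehydrogenase subunit (whole change 6.61, SE 0.27), SPG4, a gene of stationary phase (6.54, SE 0.30), and HSP30, which encodes a stress protein that regulates the plasma membrane proton pump (6.43, SE 0.21). For SPG4 and HSP30 the strain step was called as well, at 2.55 and 1.88. HSP30 was at 4.77 and 3.97 CPM in CRN in YPD, 18.2 and 14.1 in YPD-grown CRN/PPN2, 17.3 and 21.7 in CRN with KOH, and 330.2 and 438 in CRN/PPN2 with KOH. The groups with 1 of the changes overlapped each other and lay above CRN in YPD, and the group with both lay above all. LOH1 (6.63, SE 0.27) and ECM8 (6.0, SE 0.30) were among the 12 largest rises too. In some genes the fold rests on very few counts in CRN in YPD. OSW1, of the outer spore wall, had 1 count there over both libraries and 86 in CRN/PPN2 with KOH, a ratio of 316 with a 95% interval of 55.3 to 12636 (exact, counting error only). DPA10 had 2 and 121 counts (ratio 223, 60.3 to 1858), and SFC1, a mitochondrial succinate-fumarate carrier, had 3 and 55 (67.4, 21.9 to 337).

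**Figure D2:**
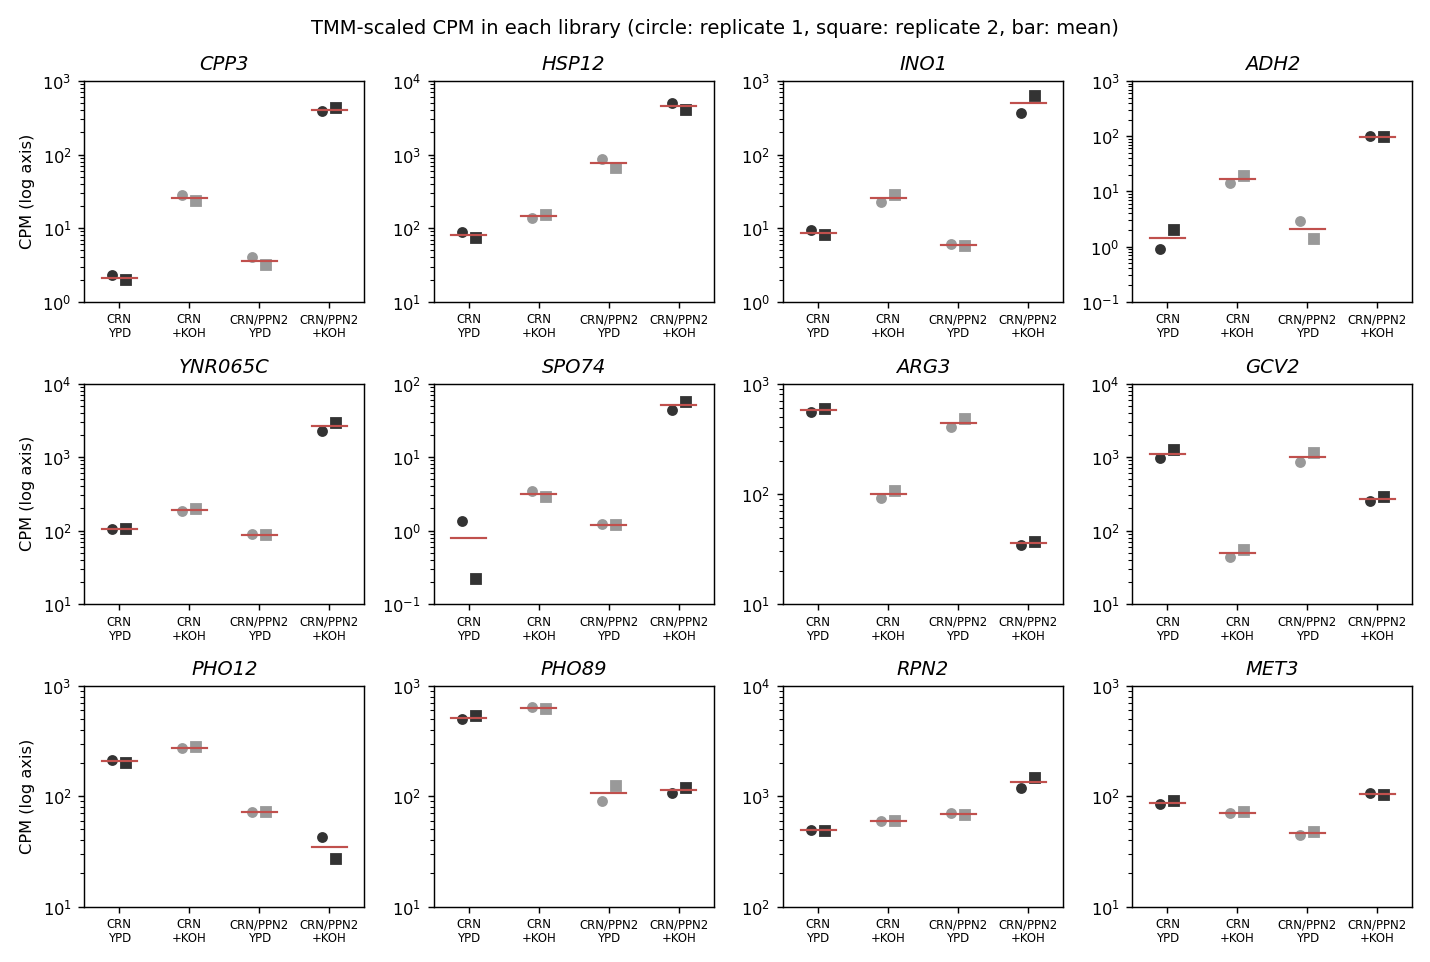
TMM-scaled CPM (log axis) of 12 genes in each of the 8 libraries, by group, with the mean as a bar. CPP3 and INO1 were highest in CRN/PPN2 with KOH, ARG3 was lowest there, GCV2 was lowest in CRN with KOH, and PHO89 was at 498 to 648 CPM in CRN and at 89.7 to 123 in CRN/PPN2.

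Genes of the Msn2/4 stress response rose in both steps. Of 41 members, 40 passed the filter, 3 of them only through the libraries of CRN/PPN2 with KOH, and 29 were called higher and 3 lower in the whole change. Their median was 1.19, against -0.01 over all genes tested. The strain step called 22, each of them higher (median 0.71), and the KOH step called 23 higher and 8 lower (median 0.52). KOH in CRN called 2 higher and 10 lower (median -0.08). The 22 calls of the strain step became 10 without CRN YPD replicate 2, 14 without CRN/PPN2 YPD replicate 1 and 11 without its replicate 2. The 8 falls of the KOH step became 5 without CRN/PPN2 YPD replicate 2. HSP12 (YFL014W, chromosome VI, 107256 to 107585), which encodes a membrane-protecting stress protein, was at 89.3 and 73.5 CPM in CRN in YPD, 139 and 152 in CRN with KOH, 874 and 663 in YPD-grown CRN/PPN2, and 4990 and 4037 in CRN/PPN2 with KOH. No 2 groups overlapped, and the order was the same in both replicates. The whole change of 5.79 (SE 0.18, adjusted p = 6.3e-14) was a strain step of 3.23 (SE 0.16) and a KOH step of 2.56 (SE 0.15), so the strain step made 55.8% of it. DDR2, another multi-stress gene, rose by 3.56 (SE 0.30), 66.6% of it in the strain step. RTN2, of the endoplasmic reticulum, rose by 3.57 (SE 0.16) with steps of 1.03 and 2.54. MOH1 rose by 3.72 (SE 0.23) with a strain step of 0.77 that was not called (adjusted p = 0.097). HSP26, a small heat shock protein gene, went from 35.9 and 52.1 CPM to 120 and 155 in YPD-grown CRN/PPN2, and was at 96.8 and 177 with KOH. Its whole change of 1.59 (SE 0.17) lay in the strain step of 1.65, and the KOH step of -0.06 was not called (adjusted p = 0.76).

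The element AGGGG, on either strand, was found in the 500 bases before the start codon of 37 of these 40 genes (92.5%) and of 1822 of all 5327 tested genes with a promoter in the annotation (34.2%). The stretches around the element nearest to the start codon are shown for the 4 members with the largest whole change and for CPP3, with the element in capitals (CCCCT is its other strand). They were read 5′ to 3′ on the strand of the gene from the R64 genome of RefSeq, at chrVI:107055-107081 (+) for HSP12, chrXV:231915-231941 (-) for DDR2, chrIV:94434-94460 (+) for RTN2, chrII:126581-126607 (+) for MOH1 and chrIV:521202-521228 (+) for CPP3.
HSP12: ttccggtcgtcCCCCTcttgatctgaa
DDR2: gtcttttctcaCCCCTtatgggacatc
RTN2: ataggcaatctCCCCTtattgttcacc
MOH1: tccttatcctgCCCCTtatcactctga
CPP3: ttcccctctcgCCCCTcccagttttca
The window of HSP12 held 5 elements, that of DDR2 4, that of CPP3 3 and those of RTN2 and MOH1 1 each. A match in these letters is a description and not a measured binding site.

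Genes of reserve carbohydrates, autophagy and the vacuole rose in part. Of 20 trehalose and glycogen genes, 10 were called higher and 3 lower (median 0.39). GPH1, glycogen phosphorylase, went from 212 and 195 CPM to 1003 and 1637 (whole change 2.67, SE 0.18), with steps of 0.96 and 1.71. GLC3, the glycogen branching enzyme gene, rose by 1.56 (SE 0.14) with 68.5% in the strain step, and GAC1, a regulator of glycogen synthesis, by 2.85 (SE 0.22). In CRN, KOH called 10 of the 20, each lower (median -0.42). Of 27 autophagy genes, 15 were called higher and 1 lower (median 0.64), and KOH in CRN called 1 higher and 5 lower. ATG8, whose product is attached to the autophagosome membrane, was at 25.0 and 26.5 CPM in CRN in YPD, 41.3 and 38.1 in YPD-grown CRN/PPN2, and 161 and 147 in CRN/PPN2 with KOH. The whole change was 2.59 (SE 0.16, adjusted p = 2.6e-10), with steps of 0.62 and 1.96 that were both called. The member that fell was ATG41 (-1.70, SE 0.26). Of 13 hydrolase genes, a list that besides vacuolar enzymes holds LAP3, NTH1 and YPS1, 8 were higher, among them AMS1, the alpha-mannosidase gene (1.21, SE 0.14), and ATH1, the acid trehalase gene (1.41, SE 0.17), and 2 were lower, with APE1, an aminopeptidase gene, at -1.09 (SE 0.14).

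Proteasome genes rose, with more calls in the strain step than in the KOH step. Of 34 members, 25 were called in the whole change, each of them higher (median 0.62). The strain step called 29, each higher (median 0.55), and the KOH step called 11 higher and 6 lower (median 0.04). In the other order, KOH in CRN called 6 higher (median 0.30). RPN2 (YIL075C), a subunit of the regulatory particle, was at 498 and 482 CPM in CRN in YPD, 704 and 681 in YPD-grown CRN/PPN2, and 1187 and 1480 in CRN/PPN2 with KOH. It rose by 1.44 (SE 0.14, adjusted p = 9.9e-08), with steps of 0.50 and 0.94. SEM1 (1.48, SE 0.14), RPN8 (1.40, SE 0.14), RPN5 (1.07, SE 0.13) and PRE6, a subunit of the core (1.04, SE 0.12), had strain steps of 0.53 to 0.58. The rest of each rise lay in the KOH step, whose median over the list was only 0.04. The 29 calls of the strain step became 12 without the replicate block. Leaving out 1 library gave 6 and 9 for CRN YPD (replicates 1 and 2) and 4 and 12 for CRN/PPN2 YPD, where the group is left with 1 library. The KOH step called 7 higher without CRN/PPN2 YPD replicate 2, and 2 lower without CRN/PPN2 YPD replicate 1.

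The site GGTGGCAAA of the factor Rpn4, on either strand, was present in the promoters of 27 of the 34 genes (79.4%) and of 95 of all 5327 (1.78%). It was found for RPN2 (chrIX:220801-220829, - strand) and RPN5 (chrIV:190776-190804, + strand), shown with the site in capitals, and these letters were not in the windows of SEM1 and RPN8.
RPN2: atttattttcGGTGGCAAAactggataca
RPN5: ttgacttttcGGTGGCAAAatgcaaaggg

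Heat shock and folding genes did not move as a group. Of 23 chaperone genes of the cytosol and, with HSP10, HSP60, SSC1 and MDJ1, of the mitochondrion, 9 were called higher and 7 lower (median 0.02). HSP82, an Hsp90 gene (1.63, SE 0.13), HSP42 (1.83, SE 0.14) and HSP104, the disaggregase gene (1.15, SE 0.13), were among those higher. With KOH in CRN, 12 of the 23 were higher and 2 lower (median 0.40). Of 20 tested genes of folding in the endoplasmic reticulum, 4 were higher and 2 lower. The 2 became 0 without CRN YPD replicate 1, and 1 when CRN/PPN2 +KOH replicate 1 was left out. Of 22 genes of oxidative stress defence 9 were higher and 7 lower, where 31.1% of all genes tested were higher and 27.4% lower. GPX1, a glutathione peroxidase gene, rose by 2.25 (SE 0.22), and GRX1, a glutaredoxin gene, by 1.70 (SE 0.13).

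Genes of carbon sources other than glucose rose and genes of glycolysis fell, mainly in the KOH step of CRN/PPN2. Of 47 glucose-repressed genes, 38 were tested, 8 of which passed only through CRN/PPN2 with KOH and so had to differ. Without the filter all 47 could be tested, and 35 were higher and 4 lower. The share of all genes called in that setting is not given, and many low genes were higher, as given by level below. This count can therefore not be read as particular to the list. In the filtered test 29 were higher and 3 lower in the whole change, 7 higher and 2 lower in the strain step, and 26 higher and 3 lower in the KOH step. Leaving out CRN/PPN2 +KOH replicate 1 or 2 gave 16 or 18 in place of 29, and 14 or 17 in place of 26. Genes that pass only through these libraries then leave the test, which covers a part of the difference. The 7 of the strain step became 4 and 3 when CRN YPD replicate 1 or 2 was left out, 4 for either library of CRN/PPN2 YPD, and 4 without the replicate block. The 2 became 1 when replicate 1 of CRN YPD or of CRN/PPN2 YPD was left out, and 4 for either library of CRN/PPN2 +KOH. In the other order, KOH in CRN called 8 of the 38 glucose-repressed genes higher and 2 lower (median 0.07). The strain step with KOH then called 26 higher and 3 lower (median 1.00). ADH2, the alcohol dehydrogenase gene of ethanol use, was at 0.909 and 1.99 CPM in CRN in YPD, 2.86 and 1.37 in YPD-grown CRN/PPN2, 14.3 and 18.6 in CRN with KOH, and 99.3 and 94.9 in CRN/PPN2 with KOH. The groups with KOH did not overlap with those in YPD. Its whole change of 6.04 (SE 0.31, adjusted p = 2.5e-11) was 5.52 in the KOH step, and KOH in CRN gave 3.48 (SE 0.36). POT1, of fatty acid oxidation, rose by 5.26 (SE 0.32), and RGI1, a gene of respiratory growth, by 3.06 (SE 0.13) with a called strain step of 0.82. ALD6, an acetaldehyde dehydrogenase gene in the same list, fell by 2.04 (SE 0.14) and moved in the other direction with KOH in CRN (1.11, SE 0.12).

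Of 22 tested genes of glycolysis and fermentation, 20 were called lower and 1 higher (median -0.84). The 1 higher was called in no leave-out but that of CRN/PPN2 +KOH replicate 2. The KOH step called 20, each lower (median -0.82), and KOH in CRN called 4, each lower (median -0.09). PGK1, phosphoglycerate kinase, was at 9175 and 10453 CPM in CRN in YPD and at 3828 and 4463 in CRN/PPN2 with KOH (-1.24, SE 0.14). The plasmid has a PGK terminator, and reads of it were not separated. PFK2, a phosphofructokinase subunit gene, fell by 1.28 (SE 0.14), and HXK2, the main hexokinase gene, by 1.33 (SE 0.14) with a called strain step of -0.51. Hexose transporter genes went both ways. Of 12 tested, 2 passed only through CRN/PPN2 with KOH and so had to differ. Of the 12, 5 were higher and 5 lower, against 31.1% and 27.4% of all genes tested. HXT7, of high-affinity uptake, was at 216 and 193 CPM against 499.8 and 551 (1.36, SE 0.13), and HXT6 was at 1.51 (SE 0.14). HXT6 and HXT7 are nearly identical in sequence, so their reads may be split or lost. HXT4 fell by 1.52 (SE 0.13). Of 44 genes of the respiratory chain and ATP synthase, 23 were higher and 10 lower (median 0.42), and the 23 became 15 without CRN YPD replicate 1. CYC7, an isoform of cytochrome c, rose by 2.97 (SE 0.14) with steps of 0.73 and 2.24. With KOH in CRN, 1 of the 44 was higher and 14 lower (median -0.34). Of 23 genes of the TCA cycle, 4 were higher and 10 lower, against 31.1% and 27.4% of all genes tested. CIT1, mitochondrial citrate synthase, was at 1.51 (SE 0.16) and CIT2, its peroxisomal form, at -1.25 (SE 0.14).

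Among phospholipid genes, INO1 had the largest rise, and cell wall genes went both ways. INO1 (YJL153C, chromosome X, 134332 to 135933), which encodes inositol-3-phosphate synthase, was at 9.32 and 7.95 CPM in CRN in YPD, 6.13 and 5.69 in YPD-grown CRN/PPN2, 22.6 and 28.3 in CRN with KOH, and 368 and 628 in CRN/PPN2 with KOH. The strain alone did not raise it, KOH in CRN raised it by 1.55 (SE 0.24), and the KOH step in CRN/PPN2 was 6.36 (SE 0.21). The whole change was 5.81 (SE 0.20, adjusted p = 1.2e-13). Other genes of the same regulon rose less, with ITR1, the inositol transporter gene, at 2.11 (SE 0.14), OPI3, a phospholipid methyltransferase gene, at 2.04 (SE 0.13) and CHO1, phosphatidylserine synthase, at 1.07 (SE 0.13). Of 23 inositol and phospholipid genes, 12 were higher and 3 lower (median 0.39). The 12 became 7 without CRN YPD replicate 2, and the 3 became 1 without CRN/PPN2 +KOH replicate 1. Of 29 genes of ergosterol synthesis, 16 were lower, among them ERG1 (-1.2, SE 0.14) and ERG10 (-1.23, SE 0.16).

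Of 47 cell wall genes, 20 were higher and 17 lower, against 31.1% and 27.4% of all genes tested. GSC2, the stress-induced subunit of glucan synthase, went from 419 and 431 CPM to 1643 and 2324 (2.21, SE 0.15) with a strain step of -0.03 that was not called (adjusted p = 0.94). CRH1, a chitin transglycosylase gene, rose by 1.92 (SE 0.14) and PIR3, of a covalently bound wall protein, by 3.75 (SE 0.16). Of 30 tested genes of the alkaline pH response, 11 were higher and 5 lower, against 31.1% and 27.4% of all genes tested. The 11 became 7 without CRN YPD replicate 2. The 5 became 3 without either CRN YPD replicate, 2 when CRN/PPN2 +KOH replicate 1 was left out and 3 for its replicate 2. RIM21, the alkaline pH sensor gene of the Rim101 pathway, was at 87.5 and 98.7 CPM in CRN in YPD, 93.8 and 84.4 in CRN with KOH, 104 and 84.4 in YPD-grown CRN/PPN2, and 248 and 258 in CRN/PPN2 with KOH. Only the last group stood apart (1.44, SE 0.14, adjusted p = 1e-07). SNF7, a subunit of the ESCRT complex on which the pathway relies, rose by 0.94 (SE 0.13), TRK1, a potassium transporter gene, by 1.51 (SE 0.12), and NRG1, a repressor gene that Rim101 represses, also rose (1.5, SE 0.18).

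Genes of meiosis and sporulation rose from a very low level in these haploid MATa cells. Of 62 members, 44 passed the filter, and 21 of these passed only through CRN/PPN2 with KOH and so had to differ. Without the filter all 62 were tested, and 44 were higher and 3 lower. The share of all genes called in that setting is not given. Many genes low in CRN in YPD were higher, as the classes by level below show. This count can therefore not be read as particular to the list. SPO74, of spore wall formation, was at 1.36 and 0.221 CPM in CRN in YPD, 1.23 and 1.18 in YPD-grown CRN/PPN2, 3.45 and 2.85 in CRN with KOH, and 44.3 and 56.9 in CRN/PPN2 with KOH (whole change 5.92, SE 0.39). SPO20, a sporulation SNARE gene, was at 2.27 and 1.32 CPM against 46.2 and 52.2 (4.73, SE 0.33), REC8, the meiotic cohesin gene, at 2.27 and 2.21 against 43.0 and 45.1 (4.28, SE 0.31), and SPO1 at 15.9 and 15.9 against 106 and 108 (2.75, SE 0.17). None of these had a called strain step. Summed over the 62 members, the level was 1046 and 924 CPM in CRN in YPD and 1848 and 1996 in CRN/PPN2 with KOH, without TMM factors. The sums over mating-type genes below also leave these factors out. The regulator genes IME1, the initiator of meiosis, and NDT80, of the middle phase, were low in CRN in YPD and higher in CRN/PPN2 with KOH. IME1 was at 4.32 and 6.40 CPM against 10.8 and 23.7, and NDT80 at 6.82 and 4.42 against 12 and 24.9 (both chosen after their values were seen). Among markers of the other mating type, 3 of 8 MATalpha genes passed the filter, 2 of these only through CRN/PPN2 with KOH, so these 2 had to differ. Another 3 of the 8 were at 0 in all libraries, and the sum over the 8 went from 26.3 and 21.4 CPM to 69.3 and 87.9. MF(ALPHA)1, the alpha pheromone gene, had 1 count in the parent against 41 in CRN/PPN2 with KOH (ratio 151, 25.6 to 6099). A gene this low in CRN in YPD could pass only where another group was higher. Of 20 tested genes of haploid MATa cells, 2 passed only through CRN/PPN2 with KOH. Of the 20, 4 were higher and 9 lower, against 31.1% and 27.4% of all genes tested. The sum over the 23 members found was 2539 and 2508 CPM in CRN in YPD and 1906 and 1732 in CRN/PPN2 with KOH. STE2, the receptor gene of MATa cells, fell by 1.18 (SE 0.13) and remained at 341 and 320.1 CPM.

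Rises at a low level were not limited to these lists. The classes by level, their medians and the sums below are in CPM without TMM factors. Among protein-coding genes with 2 to 10 CPM in CRN in YPD, 232 of 424 were tested, and 188 were called higher (81%) and 1 lower. Genes of this class pass the filter only where another group is higher, so this share was in large part set by the filter. From 20 to 50 CPM, 437 of 1252 were higher (34.9%) and 164 lower (13.1%). At 300 CPM or more, 82 of 607 were higher (13.5%) and 371 lower (61.1%). The median of all 424 genes of the low class was 4.72 and 5.24 CPM in CRN in YPD, 5.72 and 5.43 in CRN with KOH, 5.89 and 5.79 in YPD-grown CRN/PPN2, and 10.9 and 12.6 in CRN/PPN2 with KOH. Across 5329 genes, Spearman's rho of the whole change with the level in CRN in YPD was -0.40, and with gene length -0.16. Both are descriptions, and the level shares its libraries with the change. Counts of tRNA genes summed to 17.1 and 23.3 CPM in CRN in YPD and to 111 and 115 in CRN/PPN2 with KOH, and those of snoRNA genes to 751 and 668 against 1362 and 1105. CRN/PPN2 with KOH was also the group with the fewest counts and with lysis without freezing. The part of these in the rises at low level was not tested.

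**Figure D3:**
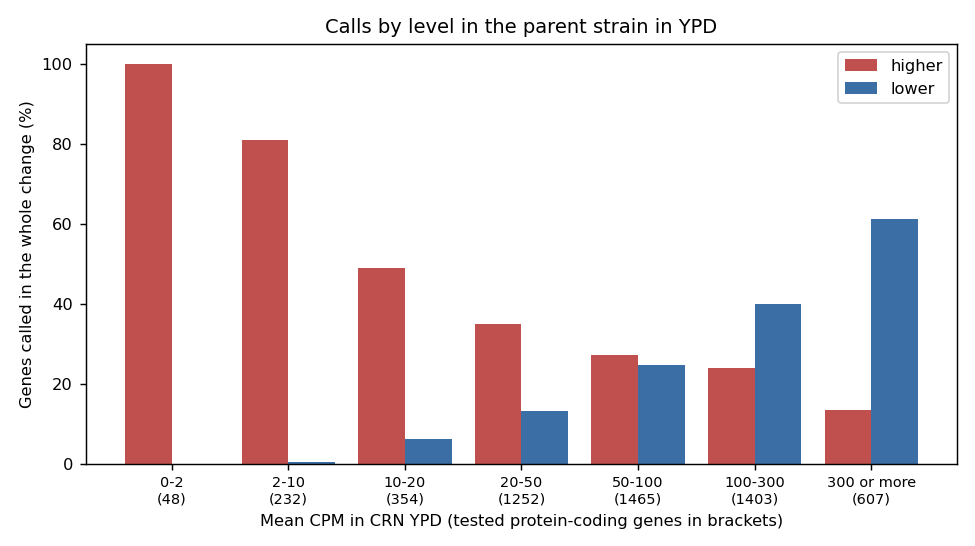
Share of tested protein-coding genes called higher or lower in the whole change (y axis, percent), by their mean CPM in CRN in YPD (x axis). This CPM is without TMM factors. The share called higher was 81% at 2 to 10 CPM and 13.5% at 300 CPM or more, and the share called lower was 0.431% and 61.1%. Below 10 CPM in CRN in YPD a gene passes the filter only where another group is higher.

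Amino acid biosynthesis genes fell, and the largest falls of single genes were among them. Of 65 members, 59 were called lower and 3 higher in the whole change (median -1.01), 14 lower in the strain step (median -0.30), and 51 lower and 3 higher in the KOH step (median -0.74). With KOH in CRN, 49 were lower (median -0.71). ARG3 (YJL088W, chromosome X, 268799 to 269815), the ornithine carbamoyltransferase gene of arginine synthesis, was at 546 and 593 CPM in CRN in YPD, 401 and 472 in YPD-grown CRN/PPN2, 91.7 and 106 in CRN with KOH, and 34.2 and 36.8 in CRN/PPN2 with KOH. No 2 groups overlapped. The whole change of -4.0 (SE 0.16, adjusted p = 1.2e-12) was -0.39 in the strain step and -3.61 in the KOH step. ARG1 (-2.98, SE 0.15), ARG8 (-2.80, SE 0.15) and ARG5,6 (-2.48, SE 0.14), all of arginine synthesis, and HIS4, of histidine synthesis (-2.07, SE 0.14), followed. The strain-step count of 14 rested on the set of libraries. It was 1 and 2 when CRN YPD replicate 1 or 2 was left out, 5 for either library of CRN +KOH, 0 and 1 for CRN/PPN2 YPD, 36 for either library of CRN/PPN2 +KOH, and 0 without the replicate block. Among other large falls, OPT2, an oligopeptide transporter gene, fell by 2.65 (SE 0.16) and AQR1, an exporter gene, by 2.05 (SE 0.17). Of 20 tested amino acid permease genes, 12 were lower and 2 higher (1 higher without CRN/PPN2 +KOH replicate 2), with DIP5, the acidic amino acid permease gene, at -1.86 (SE 0.17).

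The site TGACTC of the factor Gcn4, which activates amino acid synthesis genes, was found on either strand in 44 of the 65 promoters (67.7%) and in 700 of all 5327 (13.1%). It is shown in capitals for ARG3 (chrX:268474-268501, + strand) and ARG8 (chrXV:58568-58595, + strand).
ARG3: gggtcacgtcgTGACTCatatgctttct
ARG8: agctcgctatgTGACTCacttaaagtac

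Purine and glycine cleavage genes fell in both KOH steps. Of 24 genes of purine and one-carbon metabolism, 21 were lower in the whole change (median -0.99). KOH in CRN called 17 lower with a median of -1.67, and the strain step with KOH then called 15 higher and 5 lower (median 0.72). In the first order, the KOH step called 19 lower and 1 higher (median -0.69). By the interaction term, the KOH step lay higher in CRN/PPN2 than in CRN for 16 of the 24 genes and lower for 3, against 22.2% and 17.6% of all genes tested. GCV2 (YMR189W, chromosome XIII, 637500 to 640604), of the glycine cleavage complex, was at 965 and 1242 CPM in CRN in YPD, 854 and 1134 in YPD-grown CRN/PPN2, 43.8 and 53.9 in CRN with KOH, and 252 and 286 in CRN/PPN2 with KOH. It thus fell by 2.02 (SE 0.14) in the whole change and by 4.49 (SE 0.15) with KOH in CRN, and the KOH steps of the strains differed by 2.62 (SE 0.19, adjusted p = 3.2e-08). For SHM2, serine hydroxymethyltransferase, the whole change was -1.5 (SE 0.14) and KOH in CRN gave -3.65 (SE 0.15). GCV3 had -1.86 (SE 0.15) and -3.05 (SE 0.15). ADE12, in contrast, had -1.46 (SE 0.13) and -1.01 (SE 0.12).

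PHO regulon genes and genes of polyphosphate synthesis fell, with a called strain step in most. Of 17 PHO regulon targets, 14 were lower and 1 higher in the whole change (median -1.31), 14 lower in the strain step (median -0.77), and 8 lower and 3 higher in the KOH step (median -0.27). KOH in CRN called 1 lower and 2 higher. PHO89 (YBR296C, chromosome II, 796798 to 798522), the sodium-dependent phosphate transporter gene, was at 498 and 537 CPM in CRN in YPD, 648 and 614 in CRN with KOH, 89.7 and 123 in YPD-grown CRN/PPN2, and 108 and 119 in CRN/PPN2 with KOH. The strains did not overlap, and the media did not separate CRN/PPN2. Its whole change of -2.19 (SE 0.15, adjusted p = 1.9e-09) lay in the strain step of -2.29, with a KOH step of 0.10 (adjusted p = 0.62). PHO11 (-2.11, SE 0.24) and PHO5 (-1.31, SE 0.14), of secreted acid phosphatases, had strain steps of -1.96 and -1.78, and PHO5 then rose by 0.47 in the KOH step. PHO12, nearly identical to PHO11, was at 214 and 200 CPM in CRN in YPD, 72.1 and 71.8 in YPD-grown CRN/PPN2, and 42.4 and 27.3 in CRN/PPN2 with KOH. It fell by 2.51 (SE 0.17), 60.8% of it in the strain step. PHO84, the high-affinity phosphate transporter gene, fell by 0.97 (SE 0.15) and GIT1, of glycerophosphoinositol uptake, by 1.04 (SE 0.13), with KOH steps that were not called. PIC2, a mitochondrial phosphate carrier gene, rose by 1.60 (SE 0.12). The strain-step count of 14 was 9 without either CRN YPD replicate, 7 without CRN/PPN2 YPD replicate 1 and 9 without the replicate block. The KOH-step count of 8 was 5 without CRN/PPN2 YPD replicate 2, and the 1 higher became 0 without CRN YPD replicate 2. Of 11 phosphate transporter genes, 7 were lower and 1 higher in the whole change (2 higher without CRN/PPN2 +KOH replicate 2). The strain step called 4 of these lower and 1 higher, and the 4 became 2 when replicate 1 of CRN YPD or of CRN/PPN2 YPD was left out. The 1 higher was lost when any library of these 2 groups was left out, and without the replicate block.

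The Pho4 site CACGTG was found in 12 of the 17 promoters (70.6%) and in 336 of all 5327 (6.31%). It is shown in capitals for 4 genes, at chrII:798829-798856 (-) for PHO89, chrVIII:551805-551832 (+) for PHO12, chrI:225166-225193 (+) for PHO11 and chrX:413496-413523 (-) for VTC4. The stretches of PHO11 and PHO12 are the same in every letter.
PHO89: tgacaatgcagCACGTGggagacaaata
PHO12: cttggcgttcaCACGTGggtttaaaaag
PHO11: cttggcgttcaCACGTGggtttaaaaag
VTC4: acgtggctgcaCACGTGaatgaaaaaga

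All 5 genes of the VTC complex, which makes polyphosphate, were lower. The lists overlap, as VTC1, VTC2, VTC3 and VTC4 also count among the PHO regulon targets above. PHO84, PHO89 and GIT1 count both there and among the phosphate transporters. VTC4, of the catalytic subunit, was at 886 and 979 CPM in CRN in YPD, 533 and 662 in YPD-grown CRN/PPN2, 791 and 761 in CRN with KOH, and 292 and 340.3 in CRN/PPN2 with KOH. It fell by 1.56 (SE 0.14, adjusted p = 4.2e-08), with steps of -0.65 and -0.92. VTC2 (-1.42, SE 0.13), VTC3 (-1.41, SE 0.13), VTC1 (-1.33, SE 0.17) and VTC5 (-1.32, SE 0.15) had strain steps of -0.47 to -0.78 and KOH steps of -0.55 to -0.93. With all libraries, each strain step was called. The number called was 1 and 0 when CRN YPD replicate 1 or 2 was left out, 3 for either library of CRN +KOH, 0 and 2 for CRN/PPN2 YPD, and 0 without the replicate block. KOH in CRN lowered VTC5 alone among the 5 by the test, to 94.3 and 90.5 CPM (-1.41, SE 0.13). Among other polyphosphatase and pyrophosphatase genes, PPX1, of the cytosolic exopolyphosphatase, had a whole change of -0.12 (adjusted p = 0.44) and DDP1 of 0.05 (adjusted p = 0.83). The pyrophosphatase genes PPA2, mitochondrial, and IPP1, cytosolic, fell by 1.04 (SE 0.15) and 0.74 (SE 0.14).

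Of the 5 CYSTM genes, CPP3 and MNC1 were called higher and 1 was lower in the whole change. The KOH step called 3 higher and 1 lower (median 0.53), KOH in CRN called 2 higher, and no strain step was called. MNC1 was at 19.5 and 21.0 CPM against 43.7 and 29.6 (0.90, SE 0.26, adjusted p = 0.0068), a call that was lost without CRN YPD replicate 1 (adjusted p = 0.059) and without CRN/PPN2 +KOH replicate 1 (adjusted p = 0.23). CPP1 fell by 1.18 (SE 0.24), CPP2 had 0.21 (adjusted p = 0.29) and YDL012C -0.43 (adjusted p = 0.1). Genes of proton pumps fell in part. PMA1, the plasma membrane proton pump gene, was at 3877 and 4183 CPM against 1760 and 2134 (-1.06, SE 0.14). Its isoform PMA2 was at 3.41 and 5.74 CPM against 20.9 and 21.3 (2.28, SE 0.36). A gene as low as PMA2 in CRN in YPD passes the filter only where another group is higher, so its rise is a description. In the list of the plasma membrane proton pump, 1 of the 7 tested genes passed only through CRN/PPN2 with KOH. Of 19 V-ATPase genes, 9 were lower and 4 higher, against 27.4% and 31.1% of all genes tested. VMA5 (-1.21, SE 0.14), VMA13 (-0.98, SE 0.13) and VPH1 (-0.65, SE 0.14) were among those lower. The assembly factor genes VMA22 (1.46, SE 0.13) and VPH2 (0.98, SE 0.15) were among those higher. The study on these samples named ECM8, ADH2, YCR099C, VTC1, VTC4, CPP3, MNC1, PHO89, PHO84, PHO5, RIM21, PMA1, PMA2 and VPH1. It also reported on PPN2, all VTC genes and the other CYSTM genes. Among its gene sets were the proteasome, stress response, respiration, and cytoplasmic and mitochondrial translation. The directions of these genes and sets are thus not independent evidence.

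In sulfur and iron metabolism the strain step had more lower than higher calls. Of 27 tested genes of sulfur and methionine metabolism, 16 were lower in the strain step (median -0.57), 4 lower and 6 higher in the KOH step (median 0.11), and 15 lower and 4 higher in the whole change (median -0.50). The 4 became 2 without the replicate block and in each leave-out but those of replicate 1 of CRN +KOH and of CRN/PPN2 +KOH. The 16 became 8 and 10 when CRN YPD replicate 1 or 2 was left out, 8 and 9 for CRN/PPN2 YPD, and 10 without the replicate block. MET17, of homocysteine synthesis, fell in both steps, from 636 and 679.5 CPM to 365 and 359 and then to 183.5 and 256 (-1.61, SE 0.14). MET3, the ATP sulfurylase gene, was at 84.3 and 91.2 CPM in CRN in YPD, 44.3 and 47.7 in YPD-grown CRN/PPN2, and 108 and 103 in CRN/PPN2 with KOH. The strain step of -0.93 (SE 0.13) and the KOH step of 1.21 (SE 0.15) cancelled, and the whole change of 0.28 was not called (adjusted p = 0.093). MET32, a regulator gene, rose by 3.28 (SE 0.18), all of it in the KOH step. Of 26 tested Aft1 targets of iron uptake, 10 were lower and 1 higher in the strain step (median -0.49), 4 lower and 13 higher in the KOH step (median 0.41), and 8 lower and 6 higher in the whole change (median -0.07). The 10 became 6 without CRN YPD replicate 2, 6 without CRN/PPN2 YPD replicate 1 and 4 without its replicate 2. The 4 became 2 without CRN/PPN2 YPD replicate 1, likewise without CRN/PPN2 +KOH replicate 1 and without the replicate block. The 6 higher became 3 when replicate 2 of CRN YPD or of CRN/PPN2 +KOH was left out. FET3, the ferroxidase gene, fell in both steps (-1.58, SE 0.16), and FIT3, of a wall mannoprotein that holds siderophores, rose by 2.01 (SE 0.22) after a strain step of -0.66 that was not called (adjusted p = 0.1). ARN1, a siderophore transporter gene, had steps of -0.81 and 0.81 and a whole change of -0.01 (adjusted p = 0.98).

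Other genes whose called steps cancelled were SPL2, which acts on low-affinity phosphate uptake (-1.05 and 0.71, whole change -0.34, adjusted p = 0.078), RPS28B, of a ribosomal protein (-0.81 and 0.83, whole change 0.01, adjusted p = 0.94), AGA1, of the a-agglutinin anchor (-0.70 and 1.08, whole change 0.38, adjusted p = 0.13), and PCP1, a mitochondrial protease gene (0.69 and -0.93, whole change -0.24, adjusted p = 0.36). SCR1, the RNA of the signal recognition particle, also belonged here (0.94 and -1.17), and LSR1, the U2 snRNA, kept a rise of 0.97 (SE 0.25) after steps of 1.81 and -0.84. Neither is a usual poly(A) RNA. PCL5, a cyclin gene that acts on Gcn4, fell by 0.68 and then rose by 1.2 (whole change 0.53, SE 0.16). MIG2, a glucose repressor gene, fell by 1.04 and rose by 1.68 (whole change 0.64, SE 0.21, adjusted p = 0.016), and this whole change was lost without CRN YPD replicate 1 (adjusted p = 0.12), without CRN/PPN2 +KOH replicate 1 (adjusted p = 0.061) and without its replicate 2 (adjusted p = 0.053). It was also lost without the replicate block (adjusted p = 0.068). SRD1 fell by 2.7 and then rose by 1.21, and its KOH step was -0.14 without CRN/PPN2 +KOH replicate 1.

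Genes of translation fell in part, and ribosome biogenesis genes differed between the orders. Of 138 genes in the list of cytosolic ribosomal proteins, which also holds RPP1 of RNase P, 62 were lower and 19 higher in the whole change (median -0.34). The 62 became 41 without CRN YPD replicate 2, and 95 when CRN/PPN2 +KOH replicate 1 was left out. The 19 became 9 without CRN YPD replicate 1, and 44 when CRN/PPN2 +KOH replicate 2 was left out. RPS11A, for example, fell by 1.48 (SE 0.15). Many ribosomal protein genes come in near-identical pairs whose reads may be split. Of 38 translation factor genes, 23 were lower and 6 higher (median -0.43), with EFT2, of elongation factor 2, at -1.38 (SE 0.14) and SUI1, of initiation factor eIF1, at 1.02 (SE 0.13). Of 75 mitochondrial ribosomal protein genes, 34 were lower and 11 higher (median -0.26), against 27.4% and 31.1% of all genes tested. MRP4 was at -1.33 (SE 0.18). The 34 became 20 without CRN YPD replicate 2, and the 11 became 4 without CRN/PPN2 +KOH replicate 1. Of 89 ribosome biogenesis genes, 26 were higher and 30 lower (median -0.04), against 31.1% and 27.4% of all genes tested. KOH in CRN called 48 higher (median 0.39), and the strain step with KOH called 12 higher and 51 lower (median -0.50). NOP53 went from 294 and 172 CPM in CRN in YPD to 492 and 447 in CRN with KOH and 776 and 609.5 in CRN/PPN2 with KOH (1.59, SE 0.15), and RRP15 rose by 1.66 (SE 0.15). RPA135 and RPA190, of RNA polymerase I, fell by 0.89 (SE 0.13) and 0.86 (SE 0.14).

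Cell cycle genes were lower in part. Of 31 cyclin and cell cycle genes, 15 were lower and 1 higher (median -0.47), against 27.4% and 31.1% of all genes tested. The 1 higher was lost without CRN YPD replicate 2 and without CRN +KOH replicate 1 and 2, and 3 were higher without CRN/PPN2 +KOH replicate 2. CLB1, a mitotic cyclin gene, was at 403 and 367 CPM in CRN in YPD, 358 and 308 in YPD-grown CRN/PPN2, 190 and 169 in CRN with KOH, and 157 and 83.0 in CRN/PPN2 with KOH (-1.66, SE 0.16). FAR1, of the arrest by pheromone, fell by 1.57 (SE 0.16) and the histone genes HTB2 and HHT2 by 1.45 (SE 0.18) and 1.09 (SE 0.14). HO, the endonuclease gene of mating type switching, was among the largest falls, from 154 and 146 CPM to 85.0 and 70.6 in YPD-grown CRN/PPN2 and 21.5 and 20.2 with KOH. It stood at 149 and 151 in CRN with KOH, so the whole change of -2.85 (SE 0.19, adjusted p = 7.9e-10) was made of called steps of -0.95 and -1.90 in the first order. In a bulk culture, fewer cells in a phase and less RNA per cell cannot be told apart.

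Further groups moved in single members, where 31.1% of all genes tested were higher and 27.4% lower in the whole change. Of 26 tested genes under nitrogen catabolite repression, 3 of which passed only through CRN/PPN2 with KOH and so had to differ, 10 were lower and 6 higher, with DAL4, the allantoin permease gene, at 3.69 (SE 0.23), PUT1, proline oxidase, at 1.89 (SE 0.13) and MEP2, an ammonium permease gene, at -0.80 (SE 0.13). The 6 became 2 without CRN/PPN2 +KOH replicate 2. Without the filter, 5 were higher and 11 lower. Of 16 tested genes of copper and zinc, 7 were higher and 5 lower, with ZPS1, of a protein induced by low zinc and high pH, at 7.5 and 9.05 CPM against 174 and 267 (4.70, SE 0.19) and the zinc transporter gene ZRT1 at 1.27 (SE 0.13). Of 11 flocculin genes and regulators, 3 of which passed only through CRN/PPN2 with KOH, 7 were higher and 3 lower, and 3 were higher without either CRN/PPN2 +KOH replicate. Without the filter, 6 were higher and 4 lower. FLO1, a flocculin gene, went from 2.05 and 2.65 CPM to 32.3 and 47.4 (4.06, SE 0.30). It shares sequence with FLO5 (1.55, SE 0.21), and their reads may be split.

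**Figure D4:**
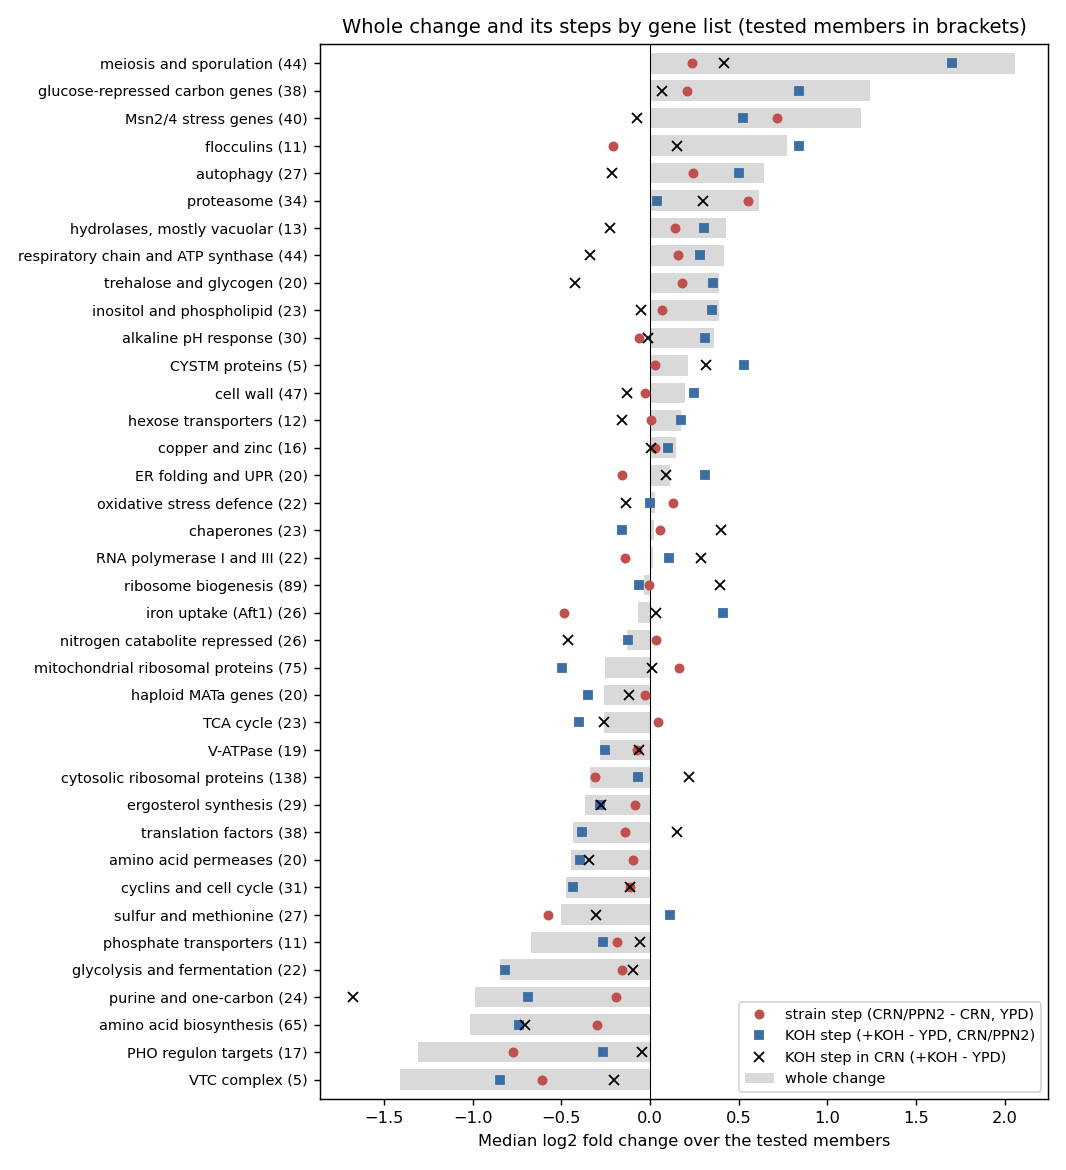
Median log2 fold change over the tested members of the gene lists drawn. Bars are the whole change, and points are the strain step, the KOH step in CRN/PPN2 and the KOH step in CRN. Not drawn are polyphosphatases, strain markers, genes named in the study, the plasma membrane proton pump, MATalpha genes and hypoxic mannoproteins. The proteasome and PHO lists have strain steps of 0.55 and -0.77, further from 0 than their KOH steps of 0.04 and -0.27, and the purine and one-carbon list has -1.67 with KOH in CRN against -0.99 in the whole change.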

How the data were processed

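RNA of 8 samples was read from the poly(A) libraries of 4 groups. The authors mapped the reads with STAR 2.7.6a to R64 and deposited the reads per gene as raw counts for 7127 genes. The STAR column (strand setting) that was kept is not given in the sources used here, so reads of overlapping antisense genes cannot be told apart. A gene entered the tests when 2 or more of the 8 libraries had 10 CPM or more. Counts were tested in R 4.3.3 with edgeR 4.0.16 (TMM, quasi-likelihood, Benjamini-Hochberg). Replicate numbers mark batches of preparation and sequencing per the methods, and they entered the model beside the 4 groups as a block. Deviations of same-numbered libraries correlated at r from 0.0926 to 0.467 across genes. The SE is approximate for genes with few counts. Alternatives were no block, ComBat-seq (sva 3.50.0), DESeq2 1.42.0, RLE and upper quartile factors, other filters, thinned counts, the 4 libraries alone and leaving out each library.

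The 44 gene lists and the comparison were chosen with earlier results of these data known. Named genes were the 12 largest rises and 12 largest falls (called, at least 20 CPM in the higher group, no overlap, without PPN2 and URA3), up to 4 members of each list with the smallest adjusted p, up to 8 genes of each class of the split, all members of the VTC, polyphosphatase, CYSTM and strain marker lists and of the genes named in the study, and the genes whose promoter is shown. IME1 and NDT80 are exceptions. Of these a part is printed. Symbols of 189 IDs and all coordinates came from RefSeq (6047 IDs matched). Motifs were searched in 500 bases before the start codon. The calls were tested on simulated data, and scripts ran in Python with pandas and scipy. Intervals cover counting error only.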

Additional observations from a re-analysis of the deposited data

Results flagged for a closer look

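The KOH step differed between CRN/PPN2 and CRN, which is equally the difference of the strain step between the media, for 2156 of the 5430 genes by the interaction term of edgeR's quasi-likelihood test (adjusted p under 0.05). Of these, 1203 (22.2%) had a higher and 953 (17.6%) a lower KOH step in CRN/PPN2. For this difference between the orders the count was 1217 after thinning all libraries to the smallest. Named genes with the largest differences were INO1 (4.81 on the log2 scale), RNP1 (4.57), YGL081W (4.40), SPR28 (4.26), PHO92 (4.22), LOH1 (4.07), YNR065C (4.04) and HED1 (4.02). In INO1 and YNR065C both CRN/PPN2 libraries with KOH lay above the other 6. The other 6 genes passed the filter only through these libraries and so had to lie higher there, and their values are a description. RNP1 was at 1.23 to 2.92 CPM in the 6 other libraries and at 70.9 and 70.0 there. PHO92 was at 0.909 to 2.86 CPM and at 60.7 and 70.0. HED1, of meiotic recombination, was at 0.909 to 2.92 CPM and at 28.5 and 36.8. SPR28, a sporulation septin gene, was at 2.35 to 5.0 CPM and at 57.6 and 52.2. Time and lysis differed between the KOH groups too, and their part was not tested.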

How the results depend on the processing

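The whole change had 2522 to 3439 calls in the settings run, against 3178, and the KOH step in CRN/PPN2 had 2291 to 3228 against 2972. Without the replicate block, the whole change called 2785 genes, the strain step in YPD 132 in place of 353, and the KOH step in CRN 362 in place of 822. ComBat-seq counts gave 556 for the strain step in YPD, and DESeq2 gave 530 for the KOH step in CRN. Thinned to the smallest library, the strain step in YPD had 125 calls, the KOH step in CRN 309 and the difference between the orders 1217 in place of 2156. Leaving out 1 library gave 98 to 801 for the strain step in YPD and 202 to 1412 for the KOH step in CRN, and the cause was not tested. Without CRN/PPN2 +KOH replicate 1 or 2, the strain step in YPD had more lower than higher calls (418 and 383, 404 and 386). Upper quartile factors moved the median of all genes in the whole change to -0.12 and turned its split from 1691 higher and 1487 lower to 1475 and 1783. They turned that of the difference between the orders from 1203 and 953 to 994 and 1240. The KOH step in CRN/PPN2 of SRD1 ran from -0.14 without CRN/PPN2 +KOH replicate 1 to 1.73 without replicate 2. Of the 212 named genes, 197 were called in the whole change, 184 of them in every setting, and the strain step was called for 77, of which 26 in every setting. Depth limits CRN/PPN2 with KOH most, where 1 count is 0.633 and 1.19 CPM.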
